A study of Mus musculus with 71 samples.

Results

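The 35 genes described here encode glucose transporters, the enzymes of glycolysis, lactate and pyruvate handling and the pentose phosphate pathway, and 2 regulators of glucose uptake. They were chosen by gene symbol, and all 35 were present among the 25579 genes of the Pax5 expression tables and among the 24420 genes of the lymphoid expression tables. The series held 71 mouse samples, of which the RNA-seq libraries were used here, and its chromatin samples were not analysed here. Of the libraries used, 31 came from bone marrow cells carrying deletions of individual Pax5 domains, with 25 in the pro-B cell experiments and 6 in the experiment on the paired domain (Prd), and 17 came from wild-type early T-lineage stages and Rag2(-/-) thymocytes.

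All mice were on the C57BL/6 background and their age was not given in the labels. The pro-B cell experiments held 5 Pax5(+/+) libraries and 2 libraries of each mutant. The octapeptide and homeodomain deletions were tested against 2 of these controls, Pax5(+/+) replicates 3 and 4. The other genotypes were fitted with all 5 and a read length term, so their changes are relative to controls of the same read length. These were replicates 1, 2 and 5 (50 nt) for Pax5(DCRD1/DCRD1) and Vav-Cre Pax5(fl/fl) cells. For the rest they were replicates 3 and 4 (100 nt). Ranges printed for Pax5(+/+) cells cover all 5 libraries, as do means printed outside the octapeptide and homeodomain comparisons. Pax5(DOP/DOP), Pax5(DHD/DHD) and Pax5(DOP,HD/DOP,HD) lacked the octapeptide, the partial homeodomain of Pax5, or both from both alleles. Pax5(DCRD1/DCRD1), Pax5(DCRD2/DCRD2) and Pax5(DCRD1,2/DCRD1,2) lacked the C-terminal regulatory domains CRD1, CRD2 or both. In Pax5(DCRD1/-), Pax5(DCRD2/-) and Pax5(DCRD1,2/-) cells the other chromosome carried a Pax5 null allele. Vav-Cre Pax5(fl/fl) cells were Pax5-deficient, because Vav-Cre deletes in blood lineages from the haematopoietic stem cell onwards. The Prd experiment compared 2 libraries each of Vav-Cre Pax5(fl/+), Vav-Cre Pax5(Prd/fl) and Vav-Cre Pax5(fl/fl) cells. Vav-Cre Pax5(fl/+) cells, the control of this experiment, were heterozygous and kept a single intact Pax5 allele. Vav-Cre Pax5(Prd/fl) cells retained the DNA-binding paired domain as their sole Pax5 product. The octapeptide allele was made in ES cells and the other domain deletions in zygotes by CRISPR. Pax5(DCRD1,2/-), Pax5(DCRD1,2/DCRD1,2), Vav-Cre Pax5(fl/fl) and Vav-Cre Pax5(Prd/fl) cells were sorted through another gate than the remaining genotypes, so gate and genotype cannot be told apart in these comparisons. The T-lineage series held 2 libraries of lymphoid-primed multipotent progenitors (LMPP) from bone marrow, 3 each of thymic DN1, DN2a and DN2b cells, 2 each of DN3a and DN3b cells, and 2 of DN3a cells from Rag2(-/-) mice, which cannot rearrange their T cell receptor genes. According to the paper, DN3a cells were sorted as negative and DN3b cells as positive for CD28 and CD71. The step from DN3a to DN3b therefore also reflects selection by these 2 surface proteins, and the 2 cannot be told apart. No label stated that replicates came from separate animals, and p-values therefore measure the spread between these samples, which may be technical.

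Glycolysis converts glucose to pyruvate in the cytosol, and pyruvate is either reduced to lactate and exported or oxidised in mitochondria, whereas the pentose phosphate pathway uses glucose 6-phosphate to make NADPH and ribose. In B-lineage cells Pax5 is known as a restraint on glucose uptake and energy supply, acting in part through Nr3c1, the glucocorticoid receptor, and Txnip, an arrestin-related protein that lowers glucose uptake through the glucose transporters. In the thymus, cells that pass beta-selection between DN3a and DN3b divide rapidly and are known to raise their glucose metabolism.

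Promoters of 5 members on which the results turn are printed here, each as the 250 bases before the RefSeq transcription start (GRCm38.p6), 5′ to 3′ on the strand of the gene. Slc2a6 (chr2:27027999-27028248, minus strand) is shown as the member with the largest response to loss of Pax5 function, Txnip (chr3:96557707-96557956, plus strand) as a regulator that changed among the Pax5 genotypes and along the T lineage, and Ldha (chr7:46845554-46845803, plus strand), Pgk1 (chrX:106186850-106187099, plus strand) and Hk2 (chr6:82774455-82774704, minus strand) as enzymes that rose at beta-selection. Capitals mark CACGTG (the E-box bound by Myc and Usf proteins), ACGTG outside CACGTG (the core of the hypoxia response element), each on either strand, and, in Txnip, a pair of CACGAG motifs 5 bases apart.
Slc2a6: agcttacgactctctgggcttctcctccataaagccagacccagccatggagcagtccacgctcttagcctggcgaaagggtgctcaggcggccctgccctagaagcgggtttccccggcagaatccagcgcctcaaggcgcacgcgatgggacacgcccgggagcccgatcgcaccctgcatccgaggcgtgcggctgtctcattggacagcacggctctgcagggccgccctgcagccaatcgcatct
Txnip: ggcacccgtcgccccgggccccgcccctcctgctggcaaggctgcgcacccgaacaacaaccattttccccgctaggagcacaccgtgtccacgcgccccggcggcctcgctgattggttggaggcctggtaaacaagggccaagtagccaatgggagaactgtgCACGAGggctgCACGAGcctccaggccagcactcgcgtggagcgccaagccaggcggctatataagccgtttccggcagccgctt
Ldha: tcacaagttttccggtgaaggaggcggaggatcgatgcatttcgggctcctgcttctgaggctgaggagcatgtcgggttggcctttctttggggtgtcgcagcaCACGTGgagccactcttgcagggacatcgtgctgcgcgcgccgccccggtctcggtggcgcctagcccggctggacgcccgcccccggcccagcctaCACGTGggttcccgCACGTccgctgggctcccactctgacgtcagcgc
Pgk1: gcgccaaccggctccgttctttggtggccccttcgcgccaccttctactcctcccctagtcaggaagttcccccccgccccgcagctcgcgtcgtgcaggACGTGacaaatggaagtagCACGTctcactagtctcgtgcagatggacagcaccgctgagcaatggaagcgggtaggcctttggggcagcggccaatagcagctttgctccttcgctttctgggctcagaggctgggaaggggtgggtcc
Hk2: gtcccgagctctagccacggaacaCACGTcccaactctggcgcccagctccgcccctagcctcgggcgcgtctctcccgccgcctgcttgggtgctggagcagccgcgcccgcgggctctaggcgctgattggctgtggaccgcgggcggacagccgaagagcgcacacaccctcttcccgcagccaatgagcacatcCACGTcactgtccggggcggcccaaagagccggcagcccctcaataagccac

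The Ldha promoter held CACGTG starting 145 and 48 bases before the start and ACGTG 34 bases before it. The Pgk1 promoter held ACGTG at 150 and 131 bases, and the Hk2 promoter at 226 and 52 bases before the start. Neither motif was found in the windows of Slc2a6 and Txnip. Among the 33 members with a promoter in the RefSeq table, CACGTG was present in 3 (9.09%), namely Pfkm, Ldha and Slc16a1, compared with 6.05% of all 27025 promoters. ACGTG outside CACGTG was present in 9 members (27.3%) compared with 11.4% of all promoters, and either motif in 11 members (33.3%) compared with 16.6%. A pair of CACGAG motifs 5 bases apart, searched for after the Txnip sequence had been seen, began 85 bases before the Txnip start and in no other of the 27025 promoters. These matches describe letters in a window and no binding was measured.

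Sequencing depth, recovered from the deposited values, was between 10018678 and 43784791 reads per library in the Pax5 tables, and was unknown in the lymphoid tables. Levels are given as TPM (transcript abundance scaled to gene length and to a fixed library total), which accounts for gene length and permits comparison between genes. Pax5 mRNA was present in all Pax5 genotypes, at 342 to 524 TPM in Pax5(+/+) cells and at 1609 to 1697 TPM in Vav-Cre Pax5(fl/fl) cells, and Rag2 mRNA at 35.5 to 42.2 TPM in Rag2(-/-) DN3a cells compared with 48.7 to 75.5 TPM in wild-type DN3a cells. These levels are summed over the whole gene, including parts that the alleles retain, and check no label. The summed level of 8 B lineage markers was 18371 to 23143 TPM in Pax5(+/+) cells and 5833 to 6514 TPM in Vav-Cre Pax5(fl/fl) cells, and 9 T lineage markers rose from 123 TPM in LMPPs to between 12872 and 20995 TPM in DN3 cells. In bulk samples fewer cells of a type and less RNA per cell cannot be told apart. Granulocyte genes stood apart in several libraries. The summed level of 12 granulocyte markers reached 16999 TPM in one Pax5(DCRD2/-) library but 1124 TPM in the other, 10092 and 625 TPM in the Pax5(DCRD2/DCRD2) libraries, 4934 and 588 TPM in the Vav-Cre Pax5(fl/fl) libraries of the pro-B experiments, and 854 to 7052 TPM in Pax5(+/+) libraries, so the counts of the pro-B experiments were repeated without the libraries above 4000 TPM. Both Pax5(DOP/DOP) libraries were above this level and were kept, as no other library of that genotype was left. Pgam1, Gapdh, Eno1, Pgk1 and Pkm have near-identical copies in the genome with which they can share reads, and their levels are uncertain.

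The first question was whether loss of individual Pax5 domains changed the expression of these genes. Deletion of the octapeptide, the homeodomain or CRD2 gave no called member, deletion of CRD1 raised Slc2a6 in both Pax5(DCRD1/-) and Pax5(DCRD1/DCRD1) cells and Pdk1 in Pax5(DCRD1/-) cells, and combined deletion of CRD1 and CRD2 or complete loss of Pax5 gave called members in both directions. A gene was called when its Benjamini-Hochberg adjusted p over all genes tested was below 0.05 in the limma fit on log2(TPM + 0.1), and fold changes are on this scale, which understates changes of genes with low levels. Where called genes are said not to overlap between groups, this describes the same libraries as the test and is no further support. Of the 35 members 34 were tested in the Pax5 tables. Eno2, the neuronal enolase, did not exceed 1 TPM in any of the 31 libraries, where it lay between 0 and 0.323 TPM.

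In Pax5(DOP/DOP) pro-B cells no member was called in the limma fit, compared with 0.485% of all genes, 9 members had an unadjusted p below 0.05, and edgeR on the recovered reads called Ldha alone. No member was called in Pax5(DHD/DHD) cells (4 at unadjusted p below 0.05; 0.639% of all genes called) or in Pax5(DOP,HD/DOP,HD) cells (4; 1.22%). The CRD2 deletion also gave no called member, with 2 at unadjusted p below 0.05 in Pax5(DCRD2/-) cells (0.513% of all genes called) and 1 in Pax5(DCRD2/DCRD2) cells (0.0956%), and edgeR called none in these 4 genotypes. A total of 2 members rose in Pax5(DCRD1/-) cells, which was 5.88% of those tested compared with 8.51% of all genes (3.85% higher and 4.66% lower). Only 1 member rose in Pax5(DCRD1/DCRD1) cells (2.94% compared with 8.16%, of which 3.71% were higher and 4.45% lower). In Pax5(DCRD1,2/-) cells 2 members rose and 4 fell (17.6% called compared with 20.2% of all genes, 7.96% higher and 12.3% lower). In Pax5(DCRD1,2/DCRD1,2) cells 4 rose and 5 fell (26.5% compared with 24.6%, 10.2% higher and 14.4% lower). These shares lay near or below those of all genes. In Vav-Cre Pax5(fl/fl) cells 13 members rose and 3 fell, so that 47.1% of the members tested were called compared with 31.7% of all genes (17.1% higher and 14.6% lower). The median log2 change of the members was 0.42 in Pax5-deficient cells, compared with 0.01 over all genes tested, whereas in the 9 domain mutants it lay between -0.05 and 0.14. The changes in Vav-Cre Pax5(fl/fl) and Pax5(DCRD1/DCRD1) cells rest on other Pax5(+/+) libraries than those in the remaining genotypes. Within each of these sets the comparisons share controls. All values are set side by side without a test of overlap.

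The count for Pax5-deficient cells depended on single libraries. It was 16 with all libraries, 7 without Vav-Cre Pax5(fl/fl) replicate 1, 10 without Vav-Cre Pax5(fl/fl) replicate 2, 8 when only Pax5(+/+) libraries of the same read length were used and 5 without the libraries high in granulocyte markers. In Pax5(DCRD1,2/-) cells 3 members were called without Pax5(DCRD1,2/-) replicate 1 and 1 was called without the libraries high in granulocyte markers. In Pax5(DCRD1,2/DCRD1,2) cells 4 members were called without Pax5(+/+) replicate 3, and 4 without either mutant library. Without Pax5(+/+) replicate 3 or either Pax5(DCRD1/-) library, 1 member was called in Pax5(DCRD1/-) cells, and the count in Pax5(DCRD1/DCRD1) cells became 4 without Pax5(+/+) replicate 5 and 2 without Pax5(+/+) replicates 1, 3 or 4.

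**Figure D1:**
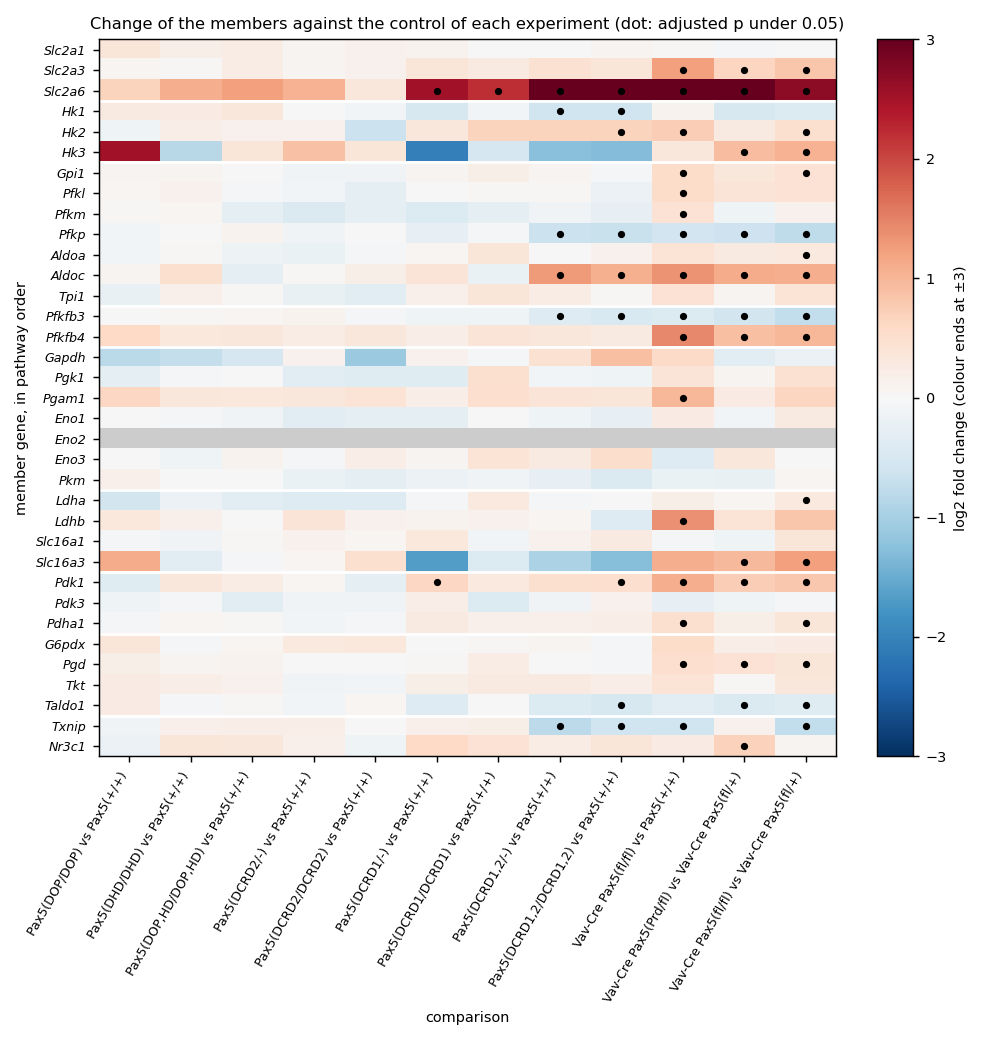
Heatmap of the log2 change in TPM of the 35 genes, ordered by role, in 12 comparisons of a Pax5 genotype with its control, where colour runs from -3 (blue) to 3 (red), a dot marks an adjusted p below 0.05 and grey marks Eno2, which was not tested. Dots are absent from the columns of the octapeptide, homeodomain and CRD2 deletions, Slc2a6 is marked in every column of a CRD1 deletion or of Pax5 loss, and the Vav-Cre Pax5(fl/fl) columns carry 16 and 17 dots.

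Among the glucose transporters, Slc2a6 (GLUT6, a lysosomal transporter of the facilitative family) showed the largest change. Its level in the 5 Pax5(+/+) libraries was 1.73, 1.89, 2.22, 2.74 and 2.79 TPM. It was 13.6 TPM in both Pax5(DCRD1/-) libraries, 9.64 and 11.4 TPM in Pax5(DCRD1/DCRD1), 19.2 and 34.2 TPM in Pax5(DCRD1,2/-), 25.8 and 32.3 TPM in Pax5(DCRD1,2/DCRD1,2), and 41.4 and 41.2 TPM in Vav-Cre Pax5(fl/fl) cells. The Pax5(DCRD1/-) and Pax5(DCRD1/DCRD1) cells were sorted through the same gate as the Pax5(+/+) cells. All libraries of these 5 genotypes lay above all Pax5(+/+) libraries, and those lacking both domains lay above those lacking CRD1 alone. The log2 change relative to Pax5(+/+) was 2.51 ± 0.31 (SE; 5.71-fold; adjusted p = 6.0e-04, limma) in Pax5(DCRD1/-), 2.21 ± 0.30 (4.62-fold; 5.4e-04) in Pax5(DCRD1/DCRD1), 3.43 ± 0.31 (10.7-fold; 3.4e-05) in Pax5(DCRD1,2/-), 3.59 ± 0.33 (12.1-fold; 6.9e-06) in Pax5(DCRD1,2/DCRD1,2) and 4.18 ± 0.29 (18.1-fold; 1.7e-06) in Vav-Cre Pax5(fl/fl) cells. Each of these calls held in all 16 alternatives tried. The difference between Pax5(DCRD1,2/-) and Pax5(DCRD1/-), a log2 change of 0.91, did not pass the threshold (adjusted p = 0.205), nor did that between hemizygous and homozygous CRD1,2 deletion (-0.17, adjusted p = 1.00).

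In the other genotypes Slc2a6 was at 3.26 and 4.18 TPM in Pax5(DOP/DOP), 4.96 and 5.14 TPM in Pax5(DHD/DHD), 4.48 and 6.94 TPM in Pax5(DOP,HD/DOP,HD), 4.26 and 5.55 TPM in Pax5(DCRD2/-) and 2.23 and 3.84 TPM in Pax5(DCRD2/DCRD2) cells. All of these libraries but 1 of Pax5(DCRD2/DCRD2) exceeded the highest Pax5(+/+) library, but no log2 change, between 0.34 and 1.24, passed the threshold (adjusted p between 0.141 and 0.892, limma).

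**Figure D2:**
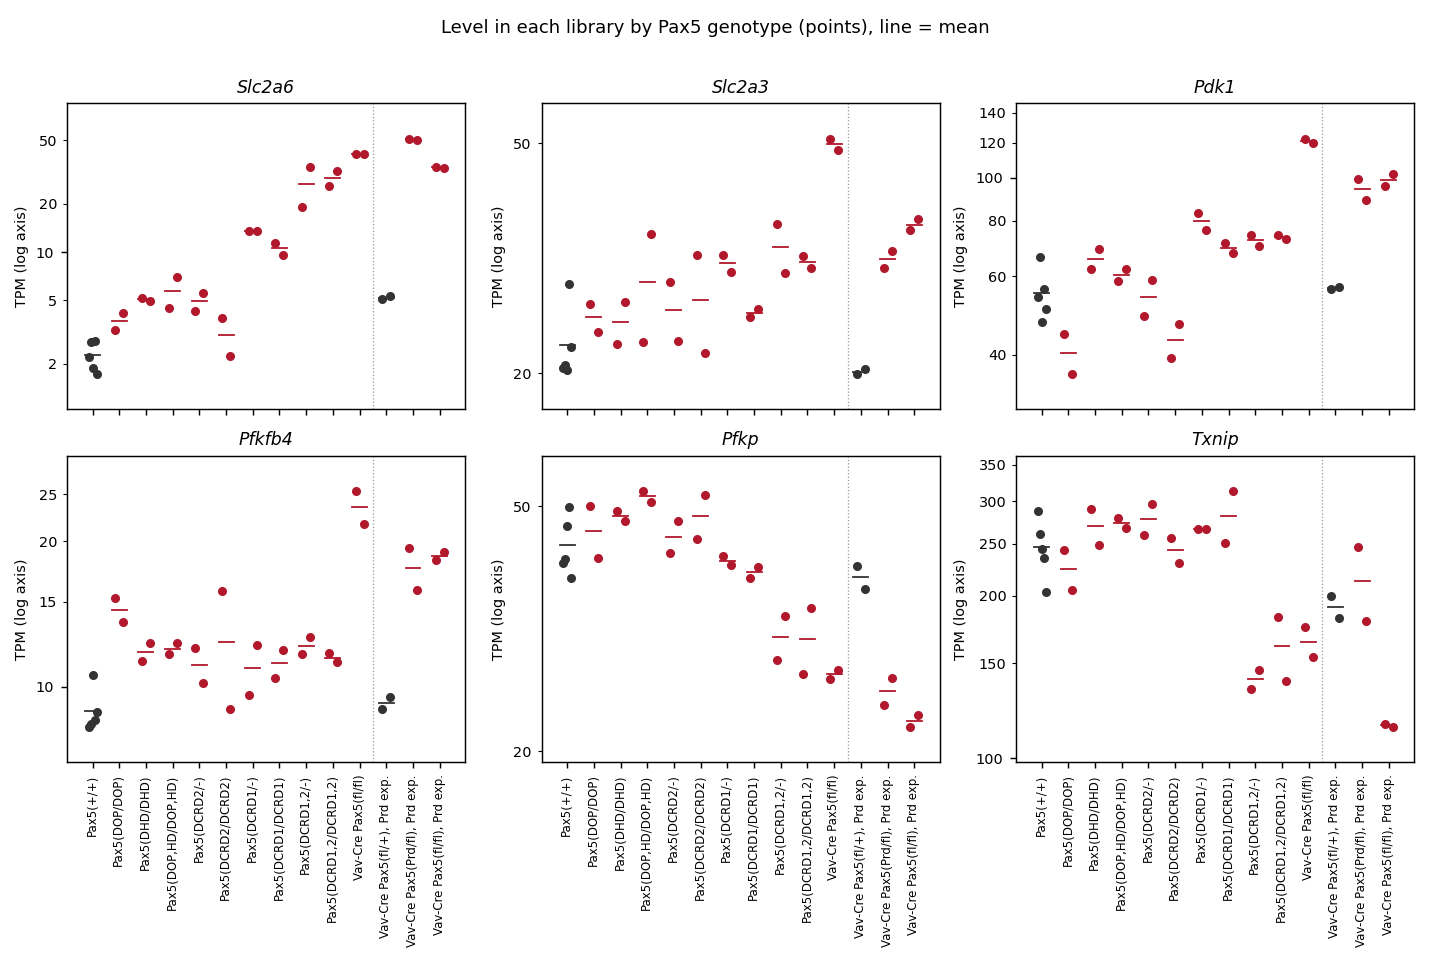
TPM of Slc2a6, Slc2a3, Pdk1, Pfkfb4, Pfkp and Txnip (log axis) in each of the 31 libraries by genotype, with points as libraries and lines as group means; black marks controls, red marks mutants and the dotted line separates the Prd experiment. Slc2a6 rises from 1.73 to 2.79 TPM in Pax5(+/+) libraries to 41.2 and 41.4 TPM in Vav-Cre Pax5(fl/fl) libraries, and Pfkp runs the other way, from 38.3 to 49.9 TPM down to 26.3 and 27.1 TPM.

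Slc2a3 (GLUT3, a high-affinity glucose transporter of the plasma membrane) changed in Pax5-deficient cells. Its level was 20.2 to 22.2 TPM in 4 Pax5(+/+) libraries and 28.5 TPM in replicate 4, compared with 50.9 and 48.6 TPM in Vav-Cre Pax5(fl/fl) cells, a log2 change of 1.23 ± 0.17 (2.35-fold; adjusted p = 2.5e-04, limma). In contrast, Slc2a1 (GLUT1, the main glucose transporter of proliferating lymphocytes) lay between 22.5 and 37.1 TPM in all 31 libraries and was called in no genotype. Its log2 change was 0.04 (adjusted p = 0.875) in Vav-Cre Pax5(fl/fl), -0.02 (0.959) in Pax5(DCRD1,2/-), 0.08 (0.748) in Pax5(DCRD1,2/DCRD1,2), 0.10 (0.803) in Pax5(DCRD1/-), -0.00 (1.00) in Pax5(DCRD1/DCRD1), 0.09 (1.00) in Pax5(DCRD2/-), 0.12 (0.943) in Pax5(DCRD2/DCRD2), 0.36 (0.178) in Pax5(DOP/DOP), 0.17 (0.675) in Pax5(DHD/DHD) and 0.22 (0.496) in Pax5(DOP,HD/DOP,HD) cells. The summed TPM of the 3 transporters shifted accordingly, with Slc2a6 at 3.16 to 5.37% of the sum in Pax5(+/+) and 33.7 to 34.8% in Vav-Cre Pax5(fl/fl) cells.

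The hexokinases phosphorylate glucose in the first step of glycolysis. Hk2, the isoenzyme induced in growing cells, was at 8.73 to 13 TPM in Pax5(+/+) cells and at 15.3 to 19.6 TPM in the libraries of both CRD1,2 genotypes and of Vav-Cre Pax5(fl/fl), with no overlap. Its log2 change was 0.74 ± 0.21 in Vav-Cre Pax5(fl/fl) cells (adjusted p = 0.0192, limma) and 0.67 ± 0.22 in Pax5(DCRD1,2/DCRD1,2) cells (0.0453), whereas a log2 change of 0.66 in Pax5(DCRD1,2/-) (0.0668) and of 0.67 in Pax5(DCRD1/DCRD1) cells (0.0652) missed the threshold. The call in Vav-Cre Pax5(fl/fl) cells was lost without Pax5(+/+) replicate 2 (0.59, adjusted p = 0.0584) and without mutant replicate 1 (0.84, 0.0519) or 2 (0.64, 0.122). That in Pax5(DCRD1,2/DCRD1,2) cells was lost without Pax5(+/+) replicate 1, 3 or 4 (adjusted p = 0.0551, 0.162 and 0.0933) and without mutant replicate 1 or 2 (0.0601 and 0.278). In the remaining genotypes Hk2 had log2 changes of 0.34 in Pax5(DCRD1/-) (adjusted p = 0.468), 0.13 in Pax5(DCRD2/-) (1.00), -0.65 in Pax5(DCRD2/DCRD2) (0.501), -0.12 in Pax5(DOP/DOP) (0.685), 0.21 in Pax5(DHD/DHD) (0.672) and 0.13 in Pax5(DOP,HD/DOP,HD) cells (0.792). Hk1, the housekeeping isoenzyme, fell from 91.9 to 104 TPM in Pax5(+/+) cells to 60.6 and 74.1 TPM in Pax5(DCRD1,2/-) (log2 change -0.60 ± 0.15, adjusted p = 0.0150) and to 65.1 and 68.5 TPM in Pax5(DCRD1,2/DCRD1,2) cells (-0.60 ± 0.13, 0.00385). The former call was lost without Pax5(+/+) replicate 3 (0.0538) or 4 (0.0727) or mutant replicate 1 (0.121). Hk1 was also below all Pax5(+/+) libraries in Pax5(DCRD1/-) cells, at 66.8 and 77.6 TPM, but was not called there. In Vav-Cre Pax5(fl/fl) cells it was at 99.9 and 112 TPM and thus not lower than in Pax5(+/+) cells. Hk2 made up 20 to 20.2% of the hexokinase TPM in Pax5(DCRD1,2/-) cells compared with 7.76 to 10.6% in Pax5(+/+) cells.

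Hk3, the myeloid-enriched hexokinase, and Slc16a3 (MCT4, a lactate exporter) varied between libraries of the same genotype together with the granulocyte markers. Hk3 was at 1.85 to 8.67 TPM in Pax5(+/+), 20.5 and 27.3 TPM in Pax5(DOP/DOP), 21.5 and 2.56 TPM in Pax5(DCRD2/-), 18.4 and 1.42 TPM in Pax5(DCRD2/DCRD2), and 12.9 and 1.84 TPM in Vav-Cre Pax5(fl/fl) cells. Within each of these mutant pairs the higher value was in the library with more granulocyte transcripts, and both Pax5(DOP/DOP) libraries were high in them, at 7771 and 8099 TPM of granulocyte markers. Neither gene was called in the pro-B experiments, and the part of granulocyte RNA in their levels was not tested.

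**Figure D3:**
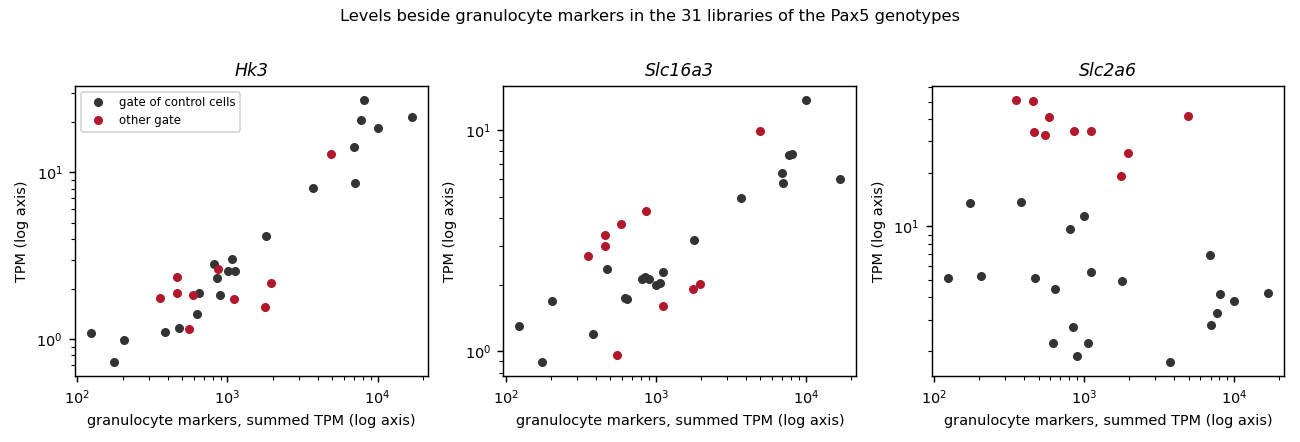
TPM of Hk3, Slc16a3 and Slc2a6 in the 31 libraries against the summed TPM of 12 granulocyte markers (both axes log), with black points for cells sorted through the gate of the control cells and red points for cells sorted through the other gate. Hk3 exceeds 10 TPM and Slc16a3 exceeds 5 TPM only in libraries with a marker sum above 4000 TPM, whereas the Slc2a6 values above 19 TPM are the red points and span marker sums up to 4934 TPM.

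In the upper part of glycolysis the isoenzymes of phosphofructokinase changed in opposite directions in Vav-Cre Pax5(fl/fl) cells. Pfkp, the platelet-type phosphofructokinase, was at 38.3 to 49.9 TPM in Pax5(+/+) cells. It fell to 28.2 and 33.2 TPM in Pax5(DCRD1,2/-) (log2 change -0.65 ± 0.13, adjusted p = 0.00500, limma), to 26.8 and 34.1 TPM in Pax5(DCRD1,2/DCRD1,2) (-0.67 ± 0.14, 0.00364) and to 26.3 and 27.1 TPM in Vav-Cre Pax5(fl/fl) cells (-0.58 ± 0.12, 0.00336). These 3 groups did not overlap with Pax5(+/+). The call in Pax5(DCRD1,2/DCRD1,2) cells was lost without mutant replicate 1 (-0.49, adjusted p = 0.0511), and that in Pax5(DCRD1,2/-) cells without the libraries high in granulocyte markers (0.0604). Pfkl, the liver-type isoenzyme, was at 68.4 to 88.8 TPM in Pax5(+/+) cells and rose to 110 and 111 TPM in Vav-Cre Pax5(fl/fl) cells (0.56 ± 0.15, 0.0160), a call lost without mutant replicate 1 (0.0751) or 2 (0.0808). Pfkm was at 28.7 to 34 TPM in Pax5(+/+) cells and at 41.8 and 40.8 TPM in Vav-Cre Pax5(fl/fl) cells. Accordingly, Pfkp made up 25 to 31.8% of the phosphofructokinase TPM in Pax5(+/+) cells and 14.8 to 15.1% in Vav-Cre Pax5(fl/fl) cells.

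Aldoc, the brain-type aldolase, was low at 1.77 to 2.47 TPM in Pax5(+/+) cells. It was at 6.44 and 4.51 TPM in Pax5(DCRD1,2/-) (log2 change 1.28 ± 0.33, adjusted p = 0.0179), 4.31 and 5.04 TPM in Pax5(DCRD1,2/DCRD1,2) (1.07 ± 0.32, 0.0256) and 6.01 and 5.55 TPM in Vav-Cre Pax5(fl/fl) cells (1.35 ± 0.30, 0.00517). All 6 of these libraries exceeded the Pax5(+/+) libraries, although the call in Pax5(DCRD1,2/-) was lost without Pax5(+/+) replicate 3 (0.0897) or mutant replicate 1 (0.133), and that in Pax5(DCRD1,2/DCRD1,2) without Pax5(+/+) replicate 3 (0.118) or 4 (0.0530) or mutant replicate 1 (0.0697) or 2 (0.142). The bifunctional enzymes that make and remove fructose 2,6-bisphosphate, the activator of phosphofructokinase, also differed in direction. Pfkfb4 rose from 8.28 to 10.6 TPM in Pax5(+/+) to 25.4 and 21.7 TPM in Vav-Cre Pax5(fl/fl) cells (1.45 ± 0.18, 2.74-fold, adjusted p = 1.1e-04). In the same Vav-Cre Pax5(fl/fl) cells Pfkfb3 was at 61.6 and 66.3 TPM, below all Pax5(+/+) libraries. Pfkfb3 was at 78.6 to 90 TPM in Pax5(+/+) cells and fell in Pax5(DCRD1,2/DCRD1,2) cells (60.4 and 61.4 TPM, -0.46 ± 0.10, 0.00568) and in Pax5(DCRD1,2/-) cells (61.9 and 66.5 TPM, -0.38 ± 0.11, 0.0371), the latter call being lost without Pax5(+/+) replicate 4 (0.183) or mutant replicate 1 (0.164) or 2 (0.0533).

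Gpi1 (glucose 6-phosphate isomerase) rose in Vav-Cre Pax5(fl/fl) cells to 586 and 446 TPM from 311 to 433 TPM in Pax5(+/+) cells (log2 change 0.56 ± 0.14, adjusted p = 0.0121), and the call was lost without mutant replicate 1 (0.36, 0.143). Among lower glycolysis genes only Pgam1 (phosphoglycerate mutase) was called in the pro-B experiments, at 7.23 and 6.56 TPM in Vav-Cre Pax5(fl/fl) compared with 2.04 to 4.74 TPM in Pax5(+/+) cells (1.00 ± 0.32, 0.0347). This call was lost without Pax5(+/+) replicate 2 (0.0686) or mutant replicate 1 (0.158) or 2 (0.103), and Pgam1 reads are shared with near-identical copies. Of the 35 members, 12 were called in no comparison of Pax5 genotypes, comprising the untested Eno2 and the 11 genes Slc2a1, Tpi1, Gapdh, Pgk1, Eno1, Eno3, Pkm, Slc16a1, Pdk3, G6pdx and Tkt.

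Ldha, the lactate dehydrogenase subunit favouring lactate formation, was among the most abundant members, at 365 to 769 TPM in Pax5(+/+) libraries. The 3 libraries sequenced with 50-nt reads had 365, 443 and 590 TPM and the 2 with 100-nt reads had 745 and 769 TPM. The level thus differed between these sets, and read length was a term of the fit. All reads were trimmed to 50 nt before alignment, and other differences between these sets cannot be told apart from read length. Its log2 change was 0.18 (adjusted p = 0.498, limma) in Vav-Cre Pax5(fl/fl), -0.05 (0.909) in Pax5(DCRD1,2/-), -0.02 (0.975) in Pax5(DCRD1,2/DCRD1,2), -0.07 (0.896) in Pax5(DCRD1/-), 0.30 (0.329) in Pax5(DCRD1/DCRD1), -0.38 in both Pax5(DCRD2/-) (0.711) and Pax5(DCRD2/DCRD2) (0.677), -0.55 (0.0663) in Pax5(DOP/DOP), -0.17 (0.566) in Pax5(DHD/DHD) and -0.35 (0.170) in Pax5(DOP,HD/DOP,HD) cells. Ldhb, the subunit favouring pyruvate formation, was far lower and rose from 2.91 to 4.37 TPM in Pax5(+/+) to 9.26 and 8.61 TPM in Vav-Cre Pax5(fl/fl) cells (1.38 ± 0.41, 0.0237). This call was lost without Pax5(+/+) replicate 1 (0.0681) or 2 (0.0636) and without mutant replicate 1 (0.120) or 2 (0.0938).

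Pdk1, a kinase that inactivates pyruvate dehydrogenase and thereby limits pyruvate oxidation, was at 47.4 to 66.5 TPM in Pax5(+/+) cells. It was at 83.4 and 76.4 TPM in Pax5(DCRD1/-), 74.3 and 70.2 TPM in Pax5(DCRD1,2/-), 74.3 and 72.8 TPM in Pax5(DCRD1,2/DCRD1,2) and 123 and 120 TPM in Vav-Cre Pax5(fl/fl) cells, without overlap with Pax5(+/+). In Pax5(DCRD1/DCRD1) cells it was at 71.1 and 67.8 TPM and was not called (0.29, 0.241). The log2 change was 1.09 ± 0.14 in Vav-Cre Pax5(fl/fl) (adjusted p = 1.7e-04), 0.63 ± 0.16 in Pax5(DCRD1/-) (0.0306), 0.51 ± 0.15 in Pax5(DCRD1,2/DCRD1,2) (0.0236) and 0.48 in Pax5(DCRD1,2/-), where it missed the threshold (0.0508). The rise in Pax5(DCRD1/-) cells was no longer called without Pax5(+/+) replicate 3 (0.191) or mutant replicate 1 (0.225) or 2 (0.107), nor that in Pax5(DCRD1,2/DCRD1,2) cells without Pax5(+/+) replicate 3 (0.165) or mutant replicate 1 (0.110) or 2 (0.0913). Taldo1 (transaldolase, of the pentose phosphate pathway) fell in Pax5(DCRD1,2/DCRD1,2) cells to 518 and 513 TPM compared with 514 to 757 TPM (-0.49 ± 0.13, 0.0169), with 1 mutant library inside the control range, and this call was lost without Pax5(+/+) replicate 3 (0.107) or mutant replicate 1 (0.0748) or 2 (0.0861). It was also lost with edgeR (0.0606), under median ratio scaling (0.0695) and without the read length term (-0.27, 0.156).

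Txnip, the inhibitor of glucose uptake, fell when both C-terminal domains or the whole of Pax5 were missing. In Pax5(+/+) cells it was at 204, 235, 245, 260 and 288 TPM. It was at 135 and 146 TPM in Pax5(DCRD1,2/-), 183 and 139 TPM in Pax5(DCRD1,2/DCRD1,2), 175 and 154 TPM in Vav-Cre Pax5(fl/fl), and 266 TPM in both Pax5(DCRD1/-) libraries. The first 3 groups lay below all Pax5(+/+) libraries and the Pax5(DCRD1/-) group lay within their range. The log2 change was -0.78 ± 0.16 (1.71-fold lower, adjusted p = 0.00523, limma) in Pax5(DCRD1,2/-), -0.59 ± 0.17 (0.0231) in Pax5(DCRD1,2/DCRD1,2) and -0.60 ± 0.14 (0.00829) in Vav-Cre Pax5(fl/fl) cells. Compared directly, Txnip was lower in Pax5(DCRD1,2/-) than in Pax5(DCRD1/-) cells (-0.93 ± 0.16, 1.90-fold, 0.0125), and it was the only member called in this comparison (2.94% of members and 2.17% of all genes, 0.594% higher and 1.58% lower). These 2 genotypes were sorted through different gates. The direct difference was lost without Pax5(DCRD1/-) replicate 1 (0.115) or 2 (0.114) or Pax5(DCRD1,2/-) replicate 1 (0.0984), and the difference in Pax5(DCRD1,2/DCRD1,2) without Pax5(+/+) replicate 3 (0.106) or 4 (0.0617) or mutant replicate 2 (0.220). That in Vav-Cre Pax5(fl/fl) cells was lost without mutant replicate 2 (0.0783), and that in Pax5(DCRD1,2/-) cells held without any single library but reached an adjusted p of 0.0547 without the libraries high in granulocyte markers.

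In the other genotypes the log2 change of Txnip was 0.15 (adjusted p = 0.672) in Pax5(DCRD1/-), 0.18 (0.573) in Pax5(DCRD1/DCRD1), 0.21 (0.910) in Pax5(DCRD2/-), 0.02 (1.00) in Pax5(DCRD2/DCRD2), 0.16 (0.638) in Pax5(DHD/DHD) and 0.19 (0.527) in Pax5(DOP,HD/DOP,HD) cells, and its level in Pax5(DOP/DOP) cells was 243 and 205 TPM. Nr3c1, the glucocorticoid receptor, was at 32 to 50.7 TPM in Pax5(+/+) cells and at 44.9 and 56.7 TPM in Vav-Cre Pax5(fl/fl) cells, with a log2 change of 0.24 (0.295). It was at 52.9 and 54.5 TPM in Pax5(DCRD1/-) (0.59, 0.0685) and 56 and 59.5 TPM in Pax5(DCRD1/DCRD1) cells (0.44, 0.0632), above all Pax5(+/+) libraries but short of the threshold, which both genotypes passed under median ratio scaling. Its log2 change was 0.23 (0.405) in Pax5(DCRD1,2/-), 0.36 (0.0907) in Pax5(DCRD1,2/DCRD1,2), 0.16 (0.978) in Pax5(DCRD2/-), -0.12 (0.920) in Pax5(DCRD2/DCRD2), -0.18 (0.486) in Pax5(DOP/DOP), 0.37 (0.310) in Pax5(DHD/DHD) and 0.33 (0.326) in Pax5(DOP,HD/DOP,HD) cells. No member was called between hemizygous and homozygous CRD1,2 deletion by limma (0 at unadjusted p below 0.05) or edgeR, compared with 0.228% of all genes.

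The second question was whether the paired domain alone could replace Pax5 at these genes. Loss of Pax5 in the Prd experiment raised 13 members and lowered 4 relative to Vav-Cre Pax5(fl/+) cells, which was 50% of members tested compared with 39.9% of all genes (20.8% higher and 19.1% lower). The median log2 change was 0.35 compared with 0.00. Cells with the paired domain alone showed 9 members that rose and 3 that fell (35.3% compared with 40.7% of all genes, 24.1% higher and 16.6% lower), with a median of 0.19 compared with 0.08. The 2 comparisons share the Vav-Cre Pax5(fl/+) libraries. Without Vav-Cre Pax5(fl/+) replicate 1 or 2 the counts dropped to 7 each in Vav-Cre Pax5(fl/fl) and 6 each in Vav-Cre Pax5(Prd/fl) cells, and without either Vav-Cre Pax5(fl/fl) library the former count was 9 or 10.

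Slc2a6 was at 5.11 and 5.27 TPM in Vav-Cre Pax5(fl/+), 34.2 and 33.8 TPM in Vav-Cre Pax5(fl/fl) and 51.3 and 50.2 TPM in Vav-Cre Pax5(Prd/fl) cells. Both mutant groups lay far above the control, with the paired domain group highest. The log2 change was 2.69 ± 0.09 (6.44-fold, adjusted p = 2.3e-05, limma) in Vav-Cre Pax5(fl/fl) and 3.26 ± 0.09 (9.60-fold, 1.4e-05) in Vav-Cre Pax5(Prd/fl) cells, and both held in all 10 alternatives. The difference between the mutants, 0.58 ± 0.09 (1.49-fold, 0.0418), was lost without Vav-Cre Pax5(Prd/fl) replicate 1 (0.0736) or Vav-Cre Pax5(fl/fl) replicate 1 (0.263) or 2 (0.197). Slc2a3 rose from 20 and 20.3 TPM to 35.3 and 37 TPM in Vav-Cre Pax5(fl/fl) (0.84 ± 0.09, 8.1e-04) and to 30.5 and 32.5 TPM in Vav-Cre Pax5(Prd/fl) cells (0.64 ± 0.09, 0.00229), whereas Slc2a1 gave log2 changes of 0.01 (0.930) and -0.03 (0.856).

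Further members were called in the same direction in both mutants. Pdk1 rose by 0.81 ± 0.09 (adjusted p = 7.7e-04) in Vav-Cre Pax5(fl/fl) and 0.73 ± 0.09 (0.00108) in Vav-Cre Pax5(Prd/fl) cells on the log2 scale, Pfkfb4 by 1.00 ± 0.13 (0.00176) and 0.91 ± 0.13 (0.00252), and Aldoc by 1.10 ± 0.18 (0.00357) and 1.11 ± 0.18 (0.00347). Pfkp fell from 40 and 36.7 TPM to 22 and 22.9 TPM (-0.77 ± 0.10, 0.00174) and to 23.8 and 26.4 TPM (-0.61 ± 0.10, 0.00434). Pfkfb3 fell from 85.5 and 81.5 TPM to 46.7 and 54.1 TPM (-0.73 ± 0.10, 0.00192) and to 59.5 and 55.6 TPM (-0.54 ± 0.10, 0.00640), and Taldo1 fell by 0.37 and 0.44, the former call being lost without any one library and without a trend. In Vav-Cre Pax5(Prd/fl) cells the Pfkp call was lost without Vav-Cre Pax5(fl/+) replicate 1 (0.0583), and the Pfkfb3 (0.0667 and 0.0525) and Taldo1 (0.0763 and 0.0903) calls without Vav-Cre Pax5(fl/+) replicate 1 or 2. Slc16a3 rose from 1.30 and 1.68 TPM to 4.30 and 2.99 TPM in Vav-Cre Pax5(fl/fl) (1.22 ± 0.28, 0.0147) and to 2.68 and 3.35 TPM in Vav-Cre Pax5(Prd/fl) cells (0.97 ± 0.28, 0.0328). Hk3 rose from 1.09 and 0.985 TPM to 2.65 and 1.89 TPM (1.04 ± 0.30, 0.0331) and to 1.77 and 2.36 TPM (0.92 ± 0.30, 0.0492). The 12 granulocyte markers moved with these genes, at 124 to 206 TPM in Vav-Cre Pax5(fl/+), 463 to 868 TPM in Vav-Cre Pax5(fl/fl) and 355 to 460 TPM in Vav-Cre Pax5(Prd/fl) cells, and their part in the change was not tested. Both genes lost their calls without Vav-Cre Pax5(fl/+) replicate 1 or 2 (adjusted p between 0.0561 and 0.189), and Hk3 also without either Vav-Cre Pax5(fl/fl) library (0.163 and 0.0539).

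Pgd, an NADPH-producing enzyme of the pentose phosphate pathway, rose in Vav-Cre Pax5(Prd/fl) cells from 172 and 178 TPM to 224 and 253 TPM (0.44 ± 0.08, 0.00716). It rose to 220 and 231 TPM in Vav-Cre Pax5(fl/fl) cells (0.37), a call lost without any one library. Hk2 rose in Vav-Cre Pax5(fl/fl) cells from 11.3 and 11.4 TPM to 15.1 and 16.4 TPM (0.47 ± 0.12, 0.0208) and was at 13.1 and 14.6 TPM in Vav-Cre Pax5(Prd/fl) cells (0.28, 0.102). Gpi1 (0.44 ± 0.11, 0.0235) and Ldha (0.29 ± 0.09, 0.0433) rose in Vav-Cre Pax5(fl/fl) cells, whereas the log2 change of Ldha in Vav-Cre Pax5(Prd/fl) cells was 0.05 (0.693). The Hk2, Gpi1 and Ldha calls were lost without any single one of the 4 libraries (adjusted p between 0.0596 and 0.235). The Ldha call was also lost with edgeR (0.0609), under median ratio scaling (0.0853), without a filter (0.0715) and without a trend (0.0956). The Pgd call in Vav-Cre Pax5(Prd/fl) cells was lost without Vav-Cre Pax5(fl/+) replicate 1 (0.0735) or 2 (0.0600).

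The regulator Txnip differed between paired domain cells and Pax5-deficient cells. Txnip was at 200 and 182 TPM in Vav-Cre Pax5(fl/+), 116 and 115 TPM in Vav-Cre Pax5(fl/fl) and 246 and 180 TPM in Vav-Cre Pax5(Prd/fl) cells, so that the control and paired domain groups overlapped and both lay above the deficient group. It fell by 0.73 ± 0.15 in Vav-Cre Pax5(fl/fl) relative to the control (adjusted p = 0.00897, limma), gave a log2 change of 0.14 (0.468) in Vav-Cre Pax5(Prd/fl) relative to the control, and was 0.87 ± 0.15 higher (1.83-fold, 0.0443) in Vav-Cre Pax5(Prd/fl) than in Vav-Cre Pax5(fl/fl) cells. Nr3c1 rose in Vav-Cre Pax5(Prd/fl) cells from 39.4 and 34.5 TPM to 54.8 and 64.9 TPM (0.69 ± 0.13, 1.61-fold, 0.00620), and was at 36.7 and 41.8 TPM in Vav-Cre Pax5(fl/fl) cells (log2 change 0.08, not called). Its difference between the mutants was 0.61 (0.0758). In the direct comparison of the mutants Txnip and Slc2a6 were the 2 members called (5.88% compared with 1.97% of all genes, 1.17% higher and 0.796% lower). That count was 0 without Vav-Cre Pax5(fl/fl) replicate 1 or 2, 1 without Vav-Cre Pax5(Prd/fl) replicate 1, 8 without Vav-Cre Pax5(Prd/fl) replicate 2 and 1 with the replicate number as a block. The adjusted p of the Txnip difference was 0.311 and 0.222 without Vav-Cre Pax5(fl/fl) replicates 1 and 2, that of its fall in Vav-Cre Pax5(fl/fl) cells lay between 0.0558 and 0.0772 without any one library, and the Nr3c1 rise was lost without Vav-Cre Pax5(fl/+) replicate 2 (0.0693).

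The Pax5-deficient change was measured in both experiments, relative to Pax5(+/+) and to Vav-Cre Pax5(fl/+) cells, and the difference between the 2 changes was tested as an interaction. No member was called by limma (4 at unadjusted p below 0.05, 0.23% of all genes called), and edgeR called Slc2a6, whose log2 change was larger in the pro-B experiments by 1.49 ± 0.29 (adjusted p = 0.124, limma). It was called by limma without Pax5(+/+) replicate 2.

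Genes outside the 35 that regulate glycolysis were examined in the same genotypes. Of 13 tested transcriptional regulators, 3 rose and none fell in Pax5(DCRD1/-) (8.51% of all genes called), 3 rose and 3 fell in Pax5(DCRD1,2/-) (20.2%), 3 rose and 2 fell in Pax5(DCRD1,2/DCRD1,2) (24.6%) and 4 rose and 1 fell in Vav-Cre Pax5(fl/fl) cells (31.7%). Myc, an activator of glycolytic genes, had a mean of 176 TPM in Pax5(+/+), 334 TPM in Pax5(DCRD1/-), 340 TPM in Pax5(DCRD1/DCRD1), 476 TPM in Pax5(DCRD1,2/-), 526 TPM in Pax5(DCRD1,2/DCRD1,2) and 480 TPM in Vav-Cre Pax5(fl/fl) cells (log2 changes 0.92 to 1.56, adjusted p at most 0.00895). Egln3, a prolyl hydroxylase that is itself induced by hypoxia-inducible factors, rose by 1.79 in Pax5(DCRD1/-), 1.65 in Pax5(DCRD1,2/-), 1.26 in Pax5(DCRD1,2/DCRD1,2) and 2.46 in Vav-Cre Pax5(fl/fl) cells on the log2 scale, and Epas1 (HIF-2alpha) rose by 2.39, 1.80 and 2.57 in the first 3 of these. Mlxip (MondoA, the glucose-sensing activator of Txnip) fell by 0.64 in Pax5(DCRD1,2/-) and 0.69 in Vav-Cre Pax5(fl/fl) cells on the log2 scale. In the Prd experiment Mlxip was at a mean of 111 TPM in Vav-Cre Pax5(fl/+), 62.1 TPM in Vav-Cre Pax5(fl/fl) and 148 TPM in Vav-Cre Pax5(Prd/fl) cells (1.25 ± 0.11 higher in the last than in the deficient cells, 0.00749). The Txnip relative Arrdc4 fell by 2.81 in Pax5(DCRD1,2/-) and 1.86 in Pax5(DCRD1,2/DCRD1,2) cells, from a mean of 1.03 TPM.

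Fbp1, the gluconeogenic fructose 1,6-bisphosphatase, was the one other glycolysis-related gene called in the central domain mutants, where it rose from a mean of 14.7 TPM to 30.2 TPM in Pax5(DHD/DHD) (log2 change 1.04 ± 0.17, adjusted p = 0.0493) and 31.8 TPM in Pax5(DOP,HD/DOP,HD) cells (1.10 ± 0.17, 0.0268). It fell from 12.3 TPM to 3.71 TPM in Pax5(DCRD1,2/-) (-1.96 ± 0.23, 2.1e-04) and 4.34 TPM in Pax5(DCRD1,2/DCRD1,2) cells (-1.76 ± 0.23, 1.0e-04). Among 6 tested glucocorticoid receptor target genes, 3 were higher and none lower in Vav-Cre Pax5(Prd/fl) than in Vav-Cre Pax5(fl/fl) cells, namely Tsc22d3 (1.77), Per1 (1.32) and Dusp1 (1.06). Of all genes, 1.17% were higher and 0.796% lower in this comparison. Igf1r (the insulin-like growth factor receptor) fell in Pax5(DCRD1,2/-), Pax5(DCRD1,2/DCRD1,2) and Vav-Cre Pax5(fl/fl) cells by between 1.45 and 1.53 on the log2 scale and in Vav-Cre Pax5(Prd/fl) cells by 1.47. Of 14 proliferation genes, 11 fell and 2 rose in Vav-Cre Pax5(fl/fl) cells (median -1.92, with 14.6% of all genes lower and 17.1% higher). In Vav-Cre Pax5(Prd/fl) cells 10 fell (median -1.44, with 16.6% of all genes lower). In the pro-B experiments the summed markers of LMPPs moved with Slc2a6, at 78.2 to 110 TPM in Pax5(+/+), 270 to 302 TPM in Pax5(DCRD1/DCRD1), 387 to 445 TPM in Pax5(DCRD1/-), 568 to 651 TPM in Pax5(DCRD1,2/-), 595 to 694 TPM in Pax5(DCRD1,2/DCRD1,2) and 669 to 797 TPM in Vav-Cre Pax5(fl/fl) cells. In the Prd experiment they were at 71.4 to 81.8 TPM in Vav-Cre Pax5(fl/+), 556 to 569 TPM in Vav-Cre Pax5(fl/fl) and 574 to 630 TPM in Vav-Cre Pax5(Prd/fl) cells. In LMPPs these markers were at 1134 to 1136 TPM and Slc2a6 at 2.75 and 3.11 TPM. The LMPP reads were aligned with another aligner to another genome version, so their levels cannot be set directly against those of the Pax5 genotypes. The markers of plasmacytoid dendritic cells were at 376 to 433 TPM in Pax5(+/+), 286 to 395 TPM in both CRD1,2 genotypes and 1111 to 1783 TPM in Vav-Cre Pax5(fl/fl) cells. The part of cell division, of LMPP markers and of dendritic cell markers in the values of the 35 genes was not tested.

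The third question was how these genes behave during early T cell development. All T-lineage libraries were compared in 1 fit with 35 members tested. The library numbers in their titles ran in separate blocks for DN3a, DN3b, Rag2(-/-) DN3a and the stages from LMPP to DN2b. What these blocks stand for was not given. In comparisons from DN2b to DN3a, from DN3a to DN3b and of Rag2(-/-) cells they cannot be told apart from stage or genotype. Slc2a3 and Txnip fell from LMPP to DN2a, and Nr3c1 and Txnip rose from DN2a to DN3a. At the step from DN3a to DN3b, which spans beta-selection, 10 genes of glycolysis and lactate handling rose. Pgam1, Gapdh, Eno1, Pgk1 and Pkm, whose levels are uncertain, are among these 10. At this step Txnip, Nr3c1, Pdk1, Aldoc, Hk1, Hk3, Pfkfb4, Ldhb, Slc16a3 and Slc2a6 fell. From LMPP to DN1, 4 members rose and 10 fell (40% called compared with 18.6% of all genes, 6.73% higher and 11.9% lower). From DN1 to DN2a, 2 rose and 13 fell (42.9% compared with 33.7%, 10.9% higher and 22.9% lower). From DN2a to DN2b, 4 rose and 5 fell (25.7% compared with 18.2%, 9.8% higher and 8.43% lower). From DN2b to DN3a, 9 rose and 4 fell (37.1% compared with 45.8%, 31.4% higher and 14.4% lower). From DN3a to DN3b, 13 rose and 10 fell (65.7% compared with 53.4%, 14.2% higher and 39.2% lower). Over all genes the last step had a median log2 change of -0.41, compared with a median of 0.16 for the members. Under median ratio scaling, which sets the median of all genes near 0, the split at this step became 20 higher and 8 lower, with Slc2a1, Gpi1, Pfkl, Aldoa, Pdk3, G6pdx and Pgd gained and Slc2a6 and Slc16a3 lost. The split from DN2b to DN3a, where the median of all genes was 0.27, became 6 and 7. G6pdx and Pdk3 were the 2 members called at no step and not in Rag2(-/-) cells in the fit on TPM.

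**Figure D4:**
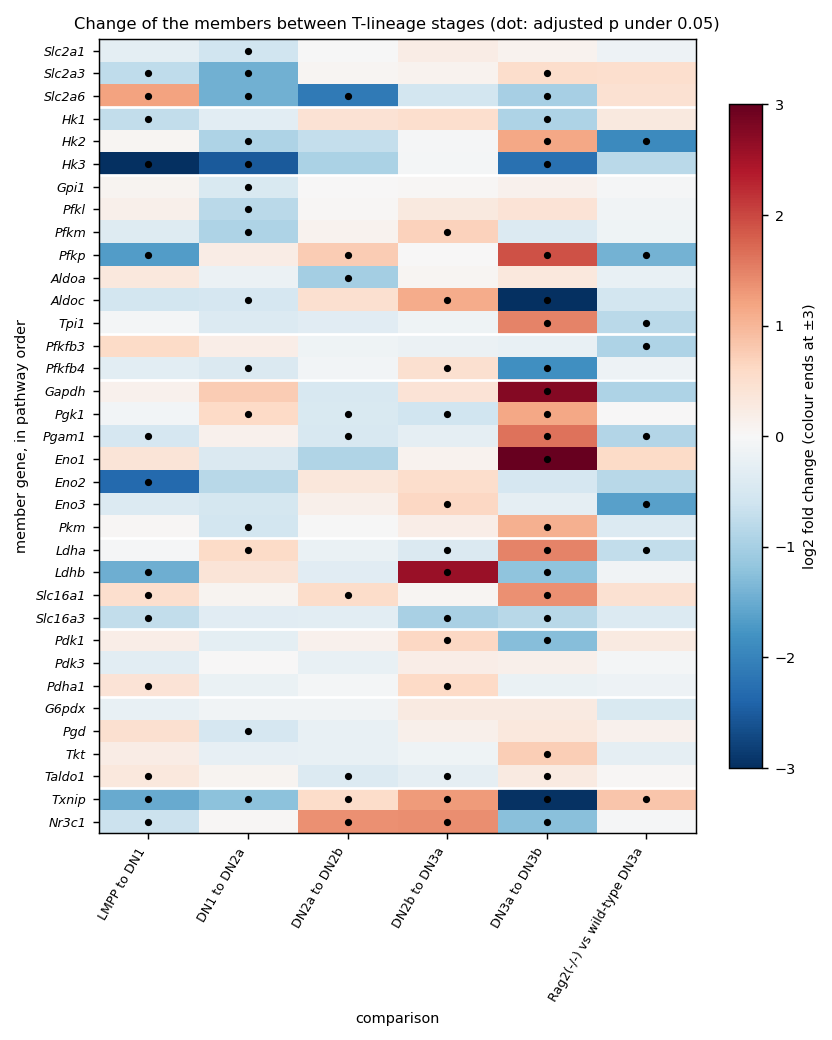
Heatmap of the log2 change in TPM of the 35 genes, ordered by role, at 5 steps from LMPP to DN3b and in Rag2(-/-) relative to wild-type DN3a cells, where colour runs from blue (lower) to red (higher) and a dot marks an adjusted p below 0.05. The column from DN3a to DN3b carries 23 dots, red for Pfkp, Ldha, Slc16a1, Tpi1, Pkm and Hk2 and blue for Aldoc, Txnip, Pfkfb4, Pdk1, Nr3c1 and Ldhb, whereas in Rag2(-/-) cells 7 of 8 dots are blue.

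Among the transporters, Slc2a3 was at 52.4 and 58.7 TPM in LMPPs, 28.6 to 35.1 TPM in DN1 and 10.3 to 13.8 TPM in DN2a cells, falling at both steps (log2 change -0.77 ± 0.17, adjusted p = 0.00506, and -1.43 ± 0.15, 1.2e-05, limma). It was between 10.9 and 21.1 TPM in the later wild-type libraries and rose from DN3a to DN3b cells (0.52 ± 0.19, 0.0284), a call lost without DN3a replicate 1 or 2 or DN3b replicate 2. The first of these falls was lost without LMPP replicate 2 (0.0600). Slc2a1 was at 50.2 and 55.1 TPM in LMPPs and 40.5 to 44.9 TPM in DN1 cells (-0.30, 0.203). It fell to 23.2 to 34.2 TPM in DN2a cells (-0.59 ± 0.13, 0.00486). It then gave log2 changes of -0.01 (0.984) from DN2a to DN2b, 0.23 (0.219) from DN2b to DN3a and 0.10 (0.634) from DN3a to DN3b. The last of these passed the threshold under median ratio scaling. Slc2a6 was at 2.75 and 3.11 TPM in LMPPs, 5.55 to 8.47 TPM in DN1, 2.03 to 3.14 TPM in DN2a, 0.333 to 0.602 TPM in DN2b, 0.219 and 0.399 TPM in DN3a and 0.0577 and 0.152 TPM in DN3b cells. It rose by 1.20 ± 0.33 to DN1 (0.0190) and fell by 1.45 ± 0.29 to DN2a (0.00228) and by 2.11 ± 0.29 to DN2b (1.6e-04), the rise being lost without LMPP replicate 1 (0.0809) or 2 (0.111) or the second library of DN1 replicate 2 (0.0730).

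**Figure D5:**
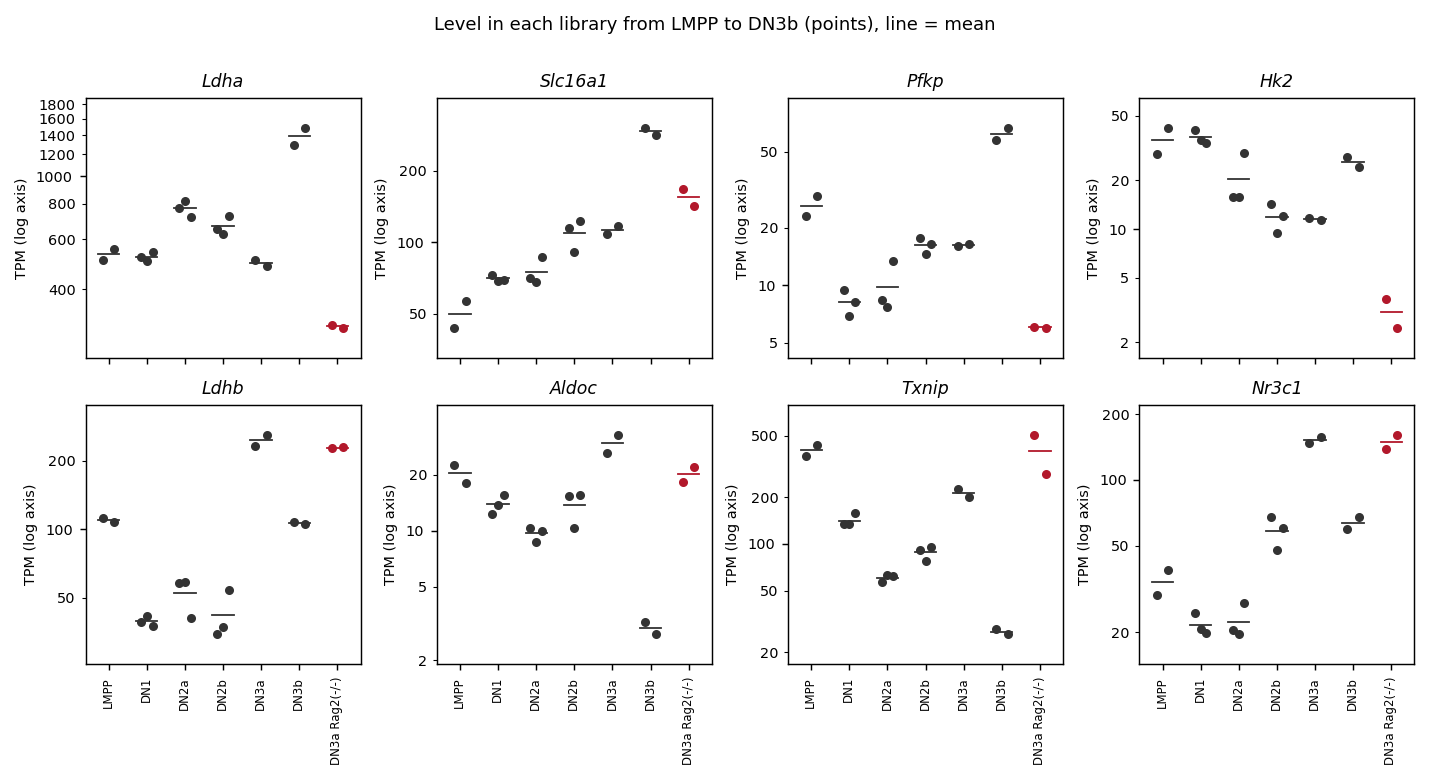
TPM of Ldha, Slc16a1, Pfkp, Hk2, Ldhb, Aldoc, Txnip and Nr3c1 (log axis) in the 17 libraries by stage from LMPP to DN3b, with points as libraries and lines as group means, and Rag2(-/-) DN3a in red. Ldha, Slc16a1, Pfkp and Hk2 step up between DN3a and DN3b, to 1292 and 1484 TPM for Ldha, whereas Ldhb, Aldoc, Txnip and Nr3c1 step down, to 26.1 and 28.3 TPM for Txnip.

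Of the hexokinases, Hk3 fell along the T lineage together with the summed granulocyte markers, at 2147 to 2406 TPM in LMPPs, 1802 to 2056 TPM in DN1, 470 to 512 TPM in DN2a and 13.1 to 25.4 TPM in DN2b cells, and the macrophage markers, at 154 to 194 TPM in LMPPs, 92.3 to 98.8 TPM in DN1 and 14.9 to 16 TPM in DN2a cells. Their part in its level was not tested. Hk3 was at 68.9 and 109 TPM in LMPPs and fell to 4.49 to 6 TPM in DN1 cells (-4.00 ± 0.50, 16.0-fold lower, adjusted p = 5.1e-05), to 0.520 to 1.10 TPM in DN2a cells (-2.53 ± 0.44, 8.3e-04), and was listed at 0 in both DN3b libraries. Hk2 was at 29.1 and 42.2 TPM in LMPPs and 34.2 to 41 TPM in DN1 cells (0.07, 0.901) and fell to 15.7, 15.8 and 29.4 TPM in DN2a cells (-0.92 ± 0.24, 0.0115), a call lost without the DN2a replicate 1 libraries (0.0566 and 0.0555). It gave log2 changes of -0.71 (0.0584) to DN2b and -0.03 (0.951) to DN3a, and then rose from 11.8 and 11.3 TPM in DN3a to 27.7 and 24.3 TPM in DN3b cells (1.16 ± 0.30, 2.24-fold, 0.00488). Hk1 fell at this step from 161 and 153 TPM to 89 and 77.5 TPM (-0.92 ± 0.24, 0.00531), and Hk2 made up 6.81 to 6.89% of the hexokinase TPM in DN3a and 23.8% in DN3b cells.

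The step from DN3a to DN3b also changed the balance of isoenzymes of phosphofructokinase, aldolase and lactate dehydrogenase. Pfkp rose from 16 and 16.3 TPM to 57.2 and 66.5 TPM (log2 change 1.92 ± 0.24, 3.79-fold, adjusted p = 1.4e-05), and its share of the phosphofructokinase TPM from 8.1 to 8.68% up to 21.3 to 24.7%. Aldoc fell from 26.3 and 33 TPM to 3.21 and 2.76 TPM (-3.26 ± 0.22, 9.60-fold lower, 5.8e-08), whereas Aldoa, the major aldolase, was at 387 and 368 TPM in DN3a and 445 and 499 TPM in DN3b cells. Ldha rose from 506 and 482 TPM to 1292 and 1484 TPM (1.49 ± 0.11, 1.3e-07), and Ldhb fell from 233 and 261 TPM to 107 and 106 TPM (-1.21 ± 0.20, 2.0e-04), so that Ldhb made up 31.5 to 35.1% of the lactate dehydrogenase TPM before and 6.66 to 7.67% after this step. The lactate transporter Slc16a1 (MCT1) rose from 108 and 116 TPM to 302 and 282 TPM (1.38 ± 0.17, 2.60-fold, 1.2e-05). The DN3a and DN3b libraries did not overlap for any of these called genes, which were selected by the test on the same libraries.

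Further enzymes rose from DN3a to DN3b. Tpi1 (triose phosphate isomerase) went from 229 and 254 TPM to 649 and 708 TPM (log2 change 1.49 ± 0.21, adjusted p = 5.7e-05), and Pkm (pyruvate kinase) from 665 and 674 TPM to 1335 and 1462 TPM (1.06 ± 0.21, 6.8e-04). Pgk1 (1.15 ± 0.13, 6.6e-06), Pgam1 (1.63 ± 0.16, 1.9e-06), Eno1 (4.46 ± 0.77, 2.8e-04) and Gapdh (2.75 ± 0.71, 0.00505) rose as well, but the level of each is uncertain because of near-identical copies. The 2 rows that each lymphoid table holds per gene differed 2.8-fold for Gapdh, 4.34-fold for Pgk1, 4.86-fold for Pgam1 and 8.32-fold for Eno1 (median of libraries), compared with medians over all genes between 1.19 and 1.28, and Gapdh was not called on the lower row (0.32, 0.655) or without DN3b replicate 2 (2.13, 0.0647). Pdk1 fell from 89.7 and 83.7 TPM to 38.5 and 33.3 TPM (-1.27 ± 0.23, 3.8e-04) and Pfkfb4 from 14.5 and 13.1 TPM to 3.84 and 3.63 TPM (-1.85 ± 0.18, 1.4e-06). The pentose phosphate enzyme Tkt (transketolase) rose from 667 and 691 TPM to 1151 and 1106 TPM (0.73 ± 0.17, 0.00249). The summed level of the 35 members was 5121 to 5175 TPM in DN3a and 7493 to 7974 TPM in DN3b cells, the highest of the 7 groups. Of the 13 members that rose, 12 had a promoter in the RefSeq table and 5 of these held CACGTG or ACGTG, compared with 2 of 9 among those that fell. Either motif was present in 33.3% of all members with a promoter and in 16.6% of all promoters. Pgk1 and Pgam1, whose levels are uncertain, are among the 5, and the difference was not tested.

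Txnip and Nr3c1 both rose from DN2a to DN3a cells and fell to DN3b cells. Mean Aldoc levels did likewise, at 9.71 TPM in DN2a, 13.8 TPM in DN2b, 29.6 TPM in DN3a and 2.98 TPM in DN3b cells. Txnip was at 370 and 437 TPM in LMPPs, 134 to 157 TPM in DN1, 56.9 to 62.9 TPM in DN2a, 78 to 95.7 TPM in DN2b, 226 and 199 TPM in DN3a and 28.3 and 26.1 TPM in DN3b cells, with no overlap between consecutive stages. The log2 change was -1.51 ± 0.19 (adjusted p = 5.6e-05) and -1.22 ± 0.17 (1.4e-04) at the first 2 steps, 0.54 ± 0.17 (0.0420) to DN2b, 1.27 ± 0.19 (1.4e-04) to DN3a and -2.96 ± 0.21 (7.79-fold lower, 9.9e-08, limma) to DN3b. The rise to DN2b was lost under median ratio scaling (0.112), without either DN2a replicate 1 library (0.130 and 0.0771), without DN2b replicate 1 (0.112) and without the second library of DN2b replicate 2 (0.101), whereas the last 2 changes held in every alternative. Nr3c1 was at 29.6 and 38.8 TPM in LMPPs, 19.8 to 24.6 TPM in DN1 (-0.65 ± 0.18, 0.0221), 19.6 to 27.2 TPM in DN2a cells (0.04, 0.889). It was at 47.8 to 67.4 TPM in DN2b (1.38 ± 0.16, 3.9e-05), 147 and 157 TPM in DN3a (1.39 ± 0.18, 4.5e-05) and 59.7 and 67.8 TPM in DN3b cells (-1.25 ± 0.20, 1.3e-04). Its fall to DN1 was lost without LMPP replicate 2 (0.209) or either library of DN1 replicate 2 (0.0652 and 0.0741).

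Other members also changed at the earlier steps. From LMPP to DN1 Pfkp fell from 22.9 and 29.2 TPM to 6.86 to 9.41 TPM (log2 change -1.67 ± 0.21, adjusted p = 7.0e-05) and Ldhb from 112 and 108 TPM to 37.7 to 41.7 TPM (-1.47 ± 0.18, 5.1e-05), and Eno2 fell by 2.34 ± 0.43 (0.00126). From DN1 to DN2a Ldha (0.57 ± 0.09, 3.4e-04) and Pgk1 (0.60 ± 0.11, 7.9e-04) were the 2 members that rose, Ldha from 503 to 541 TPM up to 721 to 818 TPM, while Pfkm (-0.92 ± 0.17, 0.00140), Pfkl (-0.81 ± 0.21, 0.00913) and Pkm (-0.55 ± 0.17, 0.0231) fell. From DN2a to DN2b Aldoa fell from 686 to 778 TPM down to 303 to 400 TPM (-1.02 ± 0.12, 3.4e-05), Pfkp rose by 0.77 ± 0.19 (0.0121), and Ldha gave a log2 change of -0.21 (0.120). From DN2b to DN3a Ldhb rose from 34.5 to 54.4 TPM up to 233 and 261 TPM (2.58 ± 0.18, 5.98-fold, 2.3e-07). Aldoc by 1.11 ± 0.20 (5.2e-04) and Pdha1 (a subunit of pyruvate dehydrogenase) by 0.59 ± 0.11 (9.7e-04) also rose. At this step Ldha fell by 0.43 ± 0.10 (0.00308), Pgk1 by 0.59 ± 0.12 (0.00120) and Slc16a3 by 0.97 ± 0.22 (0.00256). The Pkm fall to DN2a was lost without either DN2a replicate 1 library (0.0749 and 0.113), without DN1 replicate 1 (0.0798) and without the second library of DN1 replicate 2 (0.0575). The Pfkp rise to DN2b was lost without either DN2a replicate 1 library (0.0568 and 0.0593), and the Slc16a3 fall without DN3a replicate 2 (0.0529). The count of called members from LMPP to DN1 was 8 without LMPP replicate 1 or the first library of DN1 replicate 2 and 7 without LMPP replicate 2 or the second library of DN1 replicate 2. That from DN1 to DN2a was 9 without either DN2a replicate 1 library, and that from DN2b to DN3a was 8 without DN3a replicate 2.

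Rag2(-/-) DN3a cells, which cannot rearrange their antigen receptor genes, were compared with wild-type DN3a cells. Only 1 member rose and 7 fell (22.9% called compared with 26.4% of all genes, 6.91% higher and 19.5% lower). Hk2 was at 3.69 and 2.46 TPM in Rag2(-/-) compared with 11.8 and 11.3 TPM in wild-type cells (log2 change -1.90 ± 0.30, 3.74-fold lower, adjusted p = 6.7e-04, limma). Pfkp was at 6.07 and 6 TPM compared with 16 and 16.3 TPM (-1.41 ± 0.24, 9.6e-04), and Ldha at 299 and 293 TPM compared with 506 and 482 TPM (-0.74 ± 0.11, 4.3e-04). The groups did not overlap for these enzymes. Eno3, the muscle-type enolase, fell by 1.64 ± 0.26 (7.8e-04), Pgam1 by 0.87 ± 0.16 (0.00169, but 0.206 on the lower row), Tpi1 by 0.82 ± 0.21 (0.0130) and Pfkfb3 by 0.92 ± 0.26 (0.0180). Txnip was at 507 and 283 TPM compared with 226 and 199 TPM and rose by 0.83 ± 0.21 (1.78-fold, 0.0103), whereas Nr3c1 (-0.03, 0.959) and Slc2a1 (-0.15, 0.552) gave small log2 changes. The Txnip rise was lost without wild-type DN3a replicate 2 (0.0855) or Rag2(-/-) replicate 1 (0.41, 0.122), and Pfkfb3 was lost without any one of the 4 libraries (adjusted p between 0.0527 and 0.124). Tpi1 was lost without wild-type DN3a replicate 2 (0.0944) or Rag2(-/-) replicate 2 (0.0906), and was also just lost without wild-type DN3a replicate 1. The count of members called was 5 without wild-type DN3a replicate 2. Of 10 tested macrophage markers 6 rose in Rag2(-/-) cells, with a summed level of 10.7 and 41.9 TPM compared with 10.2 and 13.7 TPM, and their part in the values was not tested.

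Neighbouring pathways were examined at the same steps. From DN3a to DN3b, where 14.2% of all genes were higher and 39.2% lower, 7 of 18 tricarboxylic acid cycle genes rose and 1 fell, with Sdhb (1.29), Fh1 (0.95) and Idh3a (0.90) as examples on the log2 scale. In addition, 4 of 10 tested genes of mitochondrial pyruvate entry rose and 2 fell, with Mpc1 (0.93), a subunit of the mitochondrial pyruvate carrier, higher and the kinase Pdk2 (-3.27) lower. All 4 arrestin domain genes related to Txnip fell (median -1.28), from -0.58 for Arrdc1 to -3.04 for Arrdc4. Of 7 glucocorticoid receptor target genes, 4 rose and 1 fell from DN2b to DN3a (median 1.05, with 31.4% of all genes higher and 14.4% lower), with Klf9 (1.94) and Fkbp5 (1.52) higher, and 4 fell and none rose from DN3a to DN3b (median -1.09), with Tsc22d3 (-2.45) and Klf9 (-2.17) lower. Of the 12 tested transcriptional regulators of glycolysis none rose and 5 fell from DN3a to DN3b, near the 39.2% of all genes that were lower, with Mycn (-4.69) and Mlxip (-0.97) lower. The summed level of 14 proliferation genes was 1479 to 1715 TPM in DN3a and 6361 to 6540 TPM in DN3b cells, with 14 of 14 higher (median 2.61). It was 774 to 933 TPM in Rag2(-/-) DN3a cells, with 12 of 14 lower (median -1.39, with 19.5% of all genes lower). The part of cell division in the changes of the 35 genes was not tested.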

How the data were processed

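RNA-seq of poly(A) RNA was analysed for 31 Pax5 libraries and 17 T-lineage libraries. The authors trimmed reads to 50 nt and aligned them with STAR 2.4.2a to GRCm38 (Pax5 tables) or TopHat 1.4.1 to mm9 (lymphoid tables), and counted reads per gene with Rsubread. The deposited values were TPM for 25579 genes in the Pax5 tables, 8 of which held no gene names and were read in the row order of the named tables, where the match between orders was 100.0%. Raw read counts deposited in 2 columns served to recover whole reads from TPM (100% whole at a tolerance of 0.01) for 16745 genes. The lymphoid tables, in which the deposited signal values are TPM in 2 rows per gene, gave the mean of both rows after a value of exactly 1 was set to 0. What distinguishes the 2 rows was not given in the sources used here.

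Genes above 1 TPM in at least 1 sample were tested with limma 3.58.1 (trend) in R 4.3.3 on log2(TPM + 0.1), in fits of 8, 13, 17, 6 and 17 samples and 9 for the interaction, with read length (50 or 100 nt) as a term in the fits of 13 and 17 pro-B samples. Errors are SE and p-values were adjusted by Benjamini-Hochberg over all genes tested. Fits were tested on simulated data. Reads recovered from TPM were tested with edgeR 4.0.16 as an alternative. All called members of a comparison, or the 12 with the largest change, and Slc2a1, Hk2, Ldha, Txnip and Nr3c1 were named by rule. Called members outside this rule that are given with values, such as Ldhb, Pgk1, Pkm, Hk1, Tkt and Slc2a3 from DN3a to DN3b, were chosen after their values were seen. Summary counts of other lists name up to 4 genes per list. The members and lists were chosen with earlier results of these data known. DN1, DN2a and DN2b had 3 libraries each, of which 2 share a replicate number, and these were counted as separate samples. Marker levels are sums of TPM, and 1 B lineage marker is not reported here. Depth was between 10018678 and 43784791 reads per library in the Pax5 tables.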

Additional observations from a re-analysis of the deposited data

Results flagged for a closer look

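In 5 of the 35 genes 1 of the 5 Pax5(+/+) libraries lay far from the others, by a gap of more than 0.71 of the whole range (Dixon's critical value for 5 samples). Chance gives about 1 in 20 such groups. Eno2 was at 0.2007 TPM in replicate 5 and between 0 and 0.05395 TPM in the others. Gapdh was at 35.27 TPM in replicate 4 and between 6.405 and 12.33 TPM in the others. Pfkfb4 was at 10.56 TPM in replicate 3 and between 8.279 and 8.854 TPM in the others, and Pgam1 was at 2.04 TPM in replicate 2 and between 4.043 and 4.742 TPM in the others. Slc2a3 was at 28.52 TPM in replicate 4 and between 20.24 and 22.22 TPM in the others.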

How the results depend on the processing

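Of 148 called values, 69 stayed past the threshold under every alternative and 79 were lost under at least 1. Among the 125 followed one by one none reversed its direction. The cause of the changes was not tested, apart from the smaller number of samples when libraries are left out. The number of members called changed as follows. With edgeR on recovered reads it was 1 for Pax5(DOP/DOP), 3 for Pax5(DCRD1/DCRD1) and 1 for the interaction. Without a trend it was 1 for Pax5(DCRD1/-) and 0 for Vav-Cre Pax5(Prd/fl) against Vav-Cre Pax5(fl/fl), which was also 0 without a filter and 1 under median ratio scaling. Median ratio scaling gave 2 and no read length term gave 3 for Pax5(DCRD1/DCRD1). Under median ratio scaling the members higher and lower were 3 and 3 in Pax5(DCRD1,2/-), 5 and 4 in Pax5(DCRD1,2/DCRD1,2), 3 and 6 from DN2a to DN2b, and 3 and 7 in Rag2(-/-) cells. Among alternatives chosen after seeing the data, libraries of the same read length only gave 8 for Vav-Cre Pax5(fl/fl) against Pax5(+/+). Without libraries high in granulocyte markers the number was 5 there, 1 for Pax5(DCRD1/-) and 1 for Pax5(DCRD1,2/-).

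With each replicate left out in turn, the number called lay between 1 and 3 for Pax5(DCRD1/-), 3 and 8 for Pax5(DCRD1,2/-), 7 and 19 for Vav-Cre Pax5(fl/fl) against Pax5(+/+), 0 and 1 for Pax5(DCRD1,2/-) against Pax5(DCRD1/-), 1 and 4 for Pax5(DCRD1/DCRD1), 4 and 10 for Pax5(DCRD1,2/DCRD1,2), 7 and 10 for Vav-Cre Pax5(fl/fl) against Vav-Cre Pax5(fl/+), 6 and 17 for Vav-Cre Pax5(Prd/fl) against Vav-Cre Pax5(fl/+), 0 and 8 for Vav-Cre Pax5(Prd/fl) against Vav-Cre Pax5(fl/fl), and 0 and 1 for the interaction. In the T lineage it lay between 7 and 11 from LMPP to DN1, 9 and 22 from DN1 to DN2a, 7 and 11 from DN2a to DN2b, 8 and 14 from DN2b to DN3a, 19 and 21 from DN3a to DN3b, and 5 and 6 in Rag2(-/-) cells. Where an arm kept 1 library, it was assumed to vary like the other groups.

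The replicate numbers did not pair the samples, since correlations of same-numbered deviations lay between -0.29 and 0.18. With the replicate number as a block the number called was 1 for Vav-Cre Pax5(Prd/fl) against Vav-Cre Pax5(fl/fl), 19 for Vav-Cre Pax5(fl/fl) against Vav-Cre Pax5(fl/+), 10 for Vav-Cre Pax5(Prd/fl) against Vav-Cre Pax5(fl/+), 14 from DN1 to DN2a and 12 from DN2b to DN3a. Depth is unknown in the lymphoid tables and limits low values there.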
